A study of Mus musculus with 12 samples.

Results

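The Myc network is a family of transcription factors that bind DNA through a basic helix-loop-helix domain, and 7 of its genes were followed here in mouse germinal centre (GC) B cells: Myc, Mycn, Max, Mxi1, Mxd4, Mnt and Tfap4. They were chosen by name, with earlier results of these data known, out of 19938 genes with a probe set annotated to a single gene symbol. Each of the 7 had 1 such probe set, and the gene ID of each was found in the RefSeq gene table. Of the 7, 6 were bright enough to be tested, as were 11206 genes in all; Mycn was too dim.

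MYC and MYCN activate genes only as a dimer with MAX, and the dimer prefers the E-box CACGTG. MXI1, MXD4 and MNT also dimerize with MAX but recruit SIN3 co-repressors, so that they compete with MYC for the shared partner. TFAP4 is a helix-loop-helix factor whose gene is a direct target of MYC and which binds the related E-box CAGCTG. In germinal centres, B cells that receive T cell help in the light zone are known to switch on Myc for a short time before they return to the dark zone to divide.

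All 12 samples were donor B cells from the SwHEL strain, whose receptor recognizes hen egg lysozyme. The cells carried CD45.1 and had been transferred into C57BL/6J mice with CD45.2, immunized with sheep red blood cells carrying the lysozyme mutant HEL3x. Donor GC cells (CD45.1+, CD45.2-, IgG1+, CD38 low) were sorted on day 10 from the spleens of females. The 4 groups of 3 arrays were dark zone cells (CXCR4 high, CD86 low) of high affinity (DZ_high) or low affinity (DZ_low), and light zone cells (CD86 high, CXCR4 low) of high affinity (LZ_high) or low affinity (LZ_low). The age of the mice, the gate that set high from low affinity, and the number of animals behind each array are not given in the sources used here. The p-values therefore measure only how far these samples lie apart, which can be a technical spread. Sample descriptions end in 1 of 3 suffixes, shared by 1 array from each group, and the 4 arrays with a common suffix are called matched sets 1, 2 and 3 below.

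Values are deposited log2 expression values per probe set, and a difference of 1 is a doubling. Array medians lay between 5.57 and 5.72. The zone labels were borne out by the sort gene Cd86, which was 1.13 ± 0.11 (SE) higher in light zone cells (limma, adjusted p = 0.00138), whereas Cxcr4 was 0.63 lower, a log2 difference of -0.63 ± 0.18 that was called only with matched set as a block (adjusted p = 0.271, and 0.0449 with the block). All 12 measured genes of a light zone list were higher in light zone cells and all 11 of a dark zone list were lower, with medians of 1.01 and -0.74. Of these, 6 and 5 passed the test. B cell markers Cd79a, Cd79b, Ms4a1, Pax5 and Cd22 had group means from 9.94 to 12.07, and the GC factor gene Bcl6 had group means from 9.64 to 10.14. The first principal component (40.1% of the variance) separated matched set 3, at 12.5 to 52.9, from the remaining arrays, at -26.4 to -6.7. Among them the LZ_high array had the lowest mean correlation with the other arrays, 0.963.

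The E-box CACGTG, the preferred site of MYC with MAX and also of the MAX dimers with MXI1, MXD4 and MNT, was looked for in the promoters of the network genes. RefSeq (GRCm38.p6) windows of 300 bases around the start site were at hand for Mycn, Max, Mxi1, Mxd4 and Mnt. The motif, which reads the same on both strands, was present in the windows of Max, Mxd4 and Mnt, 3 of 5 genes. It was present in 7.15% of all 32851 windows and in 11.7% of 8970 tested genes with a window. These 3 sites are shown because they lie in the genes of the shared partner and of 2 antagonists; capitals mark the motif.
Max, chr12:76962234-76962263, minus strand: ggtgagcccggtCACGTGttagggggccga
Mxd4, chr5:34187897-34187956, minus strand: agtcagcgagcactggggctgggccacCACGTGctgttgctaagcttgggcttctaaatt
Mnt, chr11:74830774-74830833, plus strand: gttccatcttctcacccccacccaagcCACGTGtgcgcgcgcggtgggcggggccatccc
The motif began 3 bases before the annotated start of Max, 219 before that of Mxd4 and 123 before that of Mnt. No window of Mycn or of the 3 windows of Mxi1 held these letters. CAGCTG, the site of TFAP4, which also reads the same on both strands, was in 0 of the 5 genes' windows and in 17.4% of tested genes. Such a match is a description of the letters in this window, and binding was not measured.

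Over both affinities, Myc was the member with the largest difference between the zones. Its probe set, 10424400, read 7.33, 8.14 and 8.55 in DZ_high, in the order of matched sets 1, 2 and 3. It read 7.81, 7.12 and 8.04 in DZ_low, 9.09, 8.88 and 8.0 in LZ_high, and 8.37, 8.19 and 8.74 in LZ_low. The highest values were thus 2 LZ_high arrays, and the lowest were the DZ_low array of set 2 and the DZ_high array of set 1. Light and dark zone values overlapped, because the DZ_high array of set 3 was high and the LZ_high array of the same set was low.

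Group means of Myc followed the order LZ_high (8.66 ± 0.58, SD, n = 3), LZ_low (8.43 ± 0.28), DZ_high (8.01 ± 0.63) and DZ_low (7.65 ± 0.48). No 2 neighbours in this order lay further apart than the larger of their SDs. Over both affinities Myc was 0.71 ± 0.26 (SE) higher in light than in dark zone cells on the log2 scale, a 1.64-fold difference with a 95% confidence interval of 0.14 to 1.29. The unadjusted limma p was 0.0191 and the adjusted p 0.501, so Myc was not called (adjusted p = 0.351 with matched set as a block). The difference was larger in size than that of 98.2% of the tested genes, and the SD of Myc over the arrays was above that of 90.8%. The zone difference was 1.16 within set 1, 0.91 within set 2 and 0.07 within set 3. The light zone array was the higher in 5 of 6 pairs of the same set and affinity, a count whose share over all genes was not computed.

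**Figure D1:**
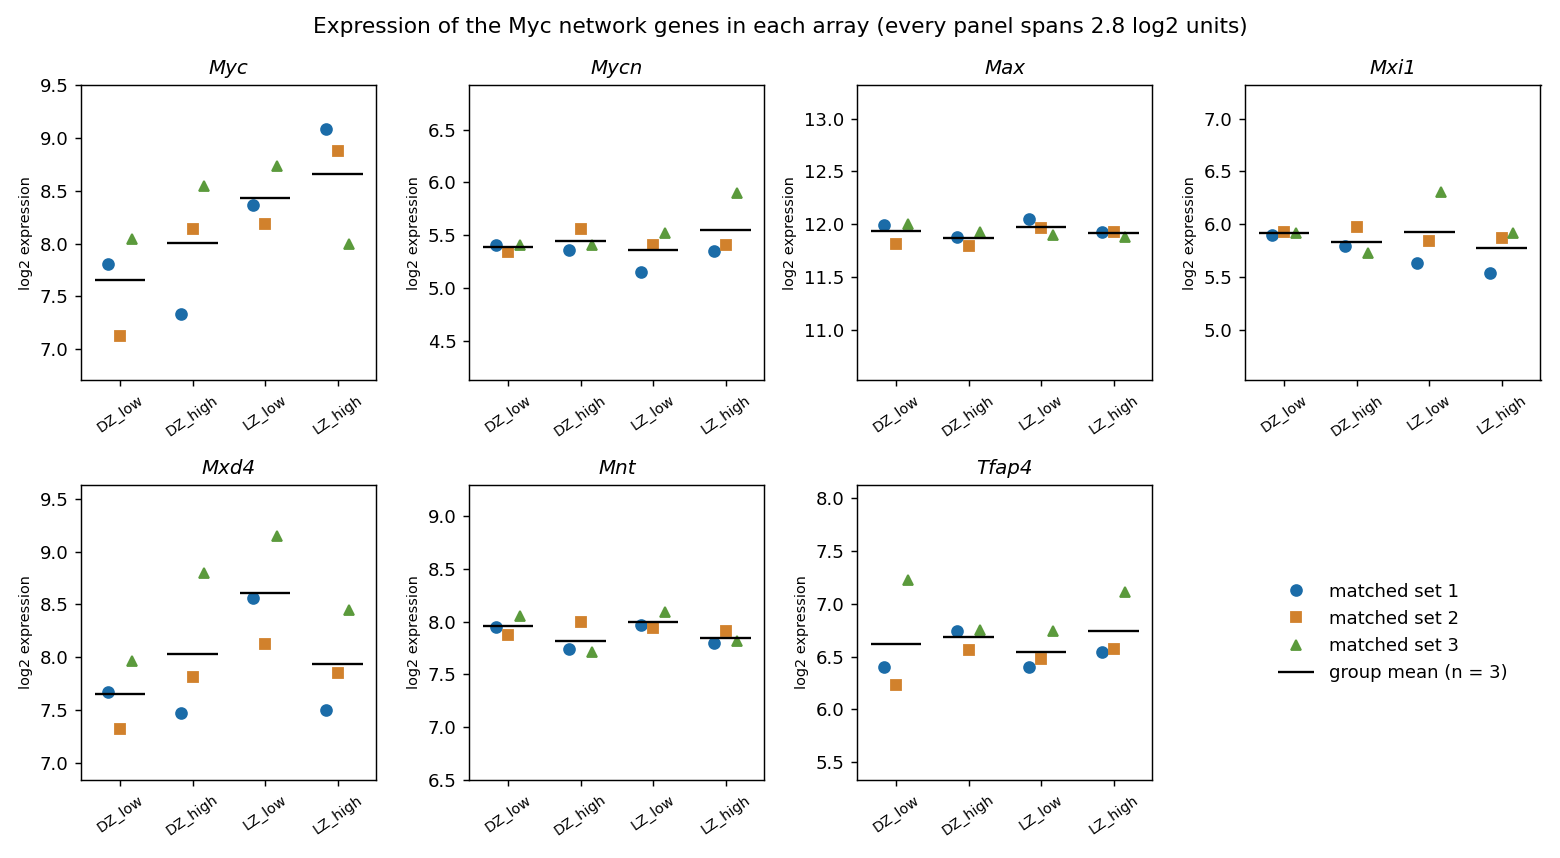
Log2 expression (vertical axis, a separate scale for each gene, all panels spanning the same number of log2 units) of each Myc network gene in the 12 arrays, by group; symbols mark the matched set and bars the mean of 3 arrays. Myc was lowest on average in DZ_low (7.65) and highest in LZ_high (8.66), Mxd4 was highest in LZ_low (8.61), and Max stayed within 0.26 over all arrays.

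At low affinity alone, the light zone arrays of Myc all lay above the dark zone arrays, which 5.41% of tested genes also did. The difference there was 0.78 ± 0.37 (interval -0.03 to 1.59, limma adjusted p = 0.999), with 0.56, 1.07 and 0.71 in the 3 sets. At high affinity it was 0.65 ± 0.37 (interval -0.16 to 1.46, adjusted p = 1), with 1.77 and 0.74 in sets 1 and 2 and -0.56 in set 3. The zone differences at high and low affinity were compared by the interaction, -0.13 (interval -1.28 to 1.02), which leaves a wide range of differences in either direction.

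Leaving out each array in turn moved the zone difference of Myc over both affinities from 0.54, without the DZ_high array of set 1, to 0.88, without the LZ_high array of set 3. None of these 12 fits called it (limma adjusted p between 0.207 and 0.754). The call was reached in 2 other fits. With array weights, which gave the LZ_high array of set 3 the lowest weight of the 12 (0.21), the difference was 0.74 (adjusted p = 0.0334). That fit called 327 of 11206 genes between the zones, against 47 without weights, and estimation of its weights stopped short of convergence. With matched set as a block and without the LZ_high array of set 3, the difference of Myc was 0.98 (adjusted p = 0.04). This fit, chosen after seeing the data, called 167 of 11100 genes. Without the whole of set 3 the difference of Myc was 1.03 (adjusted p = 0.0592).

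Between affinities Myc was 0.29 ± 0.26 higher at high affinity (interval -0.29 to 0.86, limma adjusted p = 0.964). The high-affinity array was the higher in 4 of 6 pairs. In light zone cells the difference was 0.72 and 0.70 in sets 1 and 2 and -0.75 in set 3, and in dark zone cells it was -0.48, 1.02 and 0.52. The spread between sets was larger than either mean, 0.22 and 0.35. Leaving out single arrays gave 0.01 to 0.56 in light zone and 0.08 to 0.69 in dark zone cells.

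Mycn, the relative of Myc best known from neural and progenitor cells, lay close to the array median or below it. It read from 5.15 to 5.90, at or above the array's own median in only 1 of 12 arrays, the LZ_high array of set 3. Its group means were 5.44 in DZ_high, 5.39 in DZ_low, 5.55 in LZ_high and 5.36 in LZ_low, and it was not tested. Values at this level do not show whether the gene was expressed.

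Max, the obligate partner, was bright and nearly level. It read 11.88, 11.79 and 11.93 in DZ_high, 11.99, 11.81 and 12 in DZ_low, 11.93, 11.93 and 11.88 in LZ_high, and 12.05, 11.96 and 11.90 in LZ_low. All 4 groups overlapped, and the whole range was 0.26. Its SD over the arrays was lower than that of all but 0.482% of tested genes, and it stood above at least 97.4% of all probe sets of each array. Light minus dark zone was 0.04 ± 0.09 (interval -0.15 to 0.24) and high minus low affinity -0.06 ± 0.09 (interval -0.26 to 0.13). The high-affinity array of Max was the lower in 6 of 6 pairs, by 0.02 to 0.12, as was that of 3.95% of tested genes.

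Mxd4, an antagonist associated with cells that leave the cycle, was highest in LZ_low. It read 7.47, 7.81 and 8.80 in DZ_high and 7.67, 7.32 and 7.96 in DZ_low. It read 7.50, 7.85 and 8.45 in LZ_high and 8.56, 8.12 and 9.15 in LZ_low. Within each matched set the LZ_low array was the highest of the 4, a pattern shared by 5.1% of tested genes, and set 3 was the highest set in every group. Group means were 8.61 ± 0.51 (SD, n = 3) in LZ_low, 8.03 ± 0.69 in DZ_high, 7.93 ± 0.48 in LZ_high and 7.65 ± 0.32 in DZ_low, and again no 2 neighbours lay further apart than the larger of their SDs.

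At low affinity, Mxd4 was 0.96 ± 0.38 higher in light than in dark zone cells, a 1.94-fold difference (interval 0.14 to 1.78). The 2 groups did not overlap, with LZ_low the higher, as for 5.41% of tested genes, and the 3 sets gave 0.89, 0.80 and 1.19. The limma p was 0.0263 and the adjusted p 0.908. With matched set as a block the SE was 0.21, the unadjusted p 0.000937 and the adjusted p 0.133, so Mxd4 was not called in either fit. At high affinity the difference was -0.10 ± 0.38 (interval -0.92 to 0.73), with 0.03, 0.03 and -0.35 in the sets.

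Between affinities, Mxd4 differed in opposite directions in the 2 zones on average, without a call. In light zone cells it was lower at high affinity, -0.68 ± 0.38 (interval -1.50 to 0.14, limma adjusted p = 0.999), with -1.06, -0.28 and -0.70 in the sets. In dark zone cells it was 0.38 ± 0.38 (interval -0.45 to 1.20), with -0.20, 0.49 and 0.84. The interaction was -1.06 ± 0.53 (interval -2.22 to 0.11), and it was below 0 in all 3 sets, -0.86, -0.76 and -1.54. Its unadjusted p was 0.0715, and 0.00481 with the block, but the adjusted p was 1 in both fits. With single arrays left out the interaction ran from -1.34 to -0.67, the latter without the DZ_high array of set 3, and the light zone difference from -0.94 to -0.41, the latter without the LZ_low array of set 3.

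**Figure D2:**
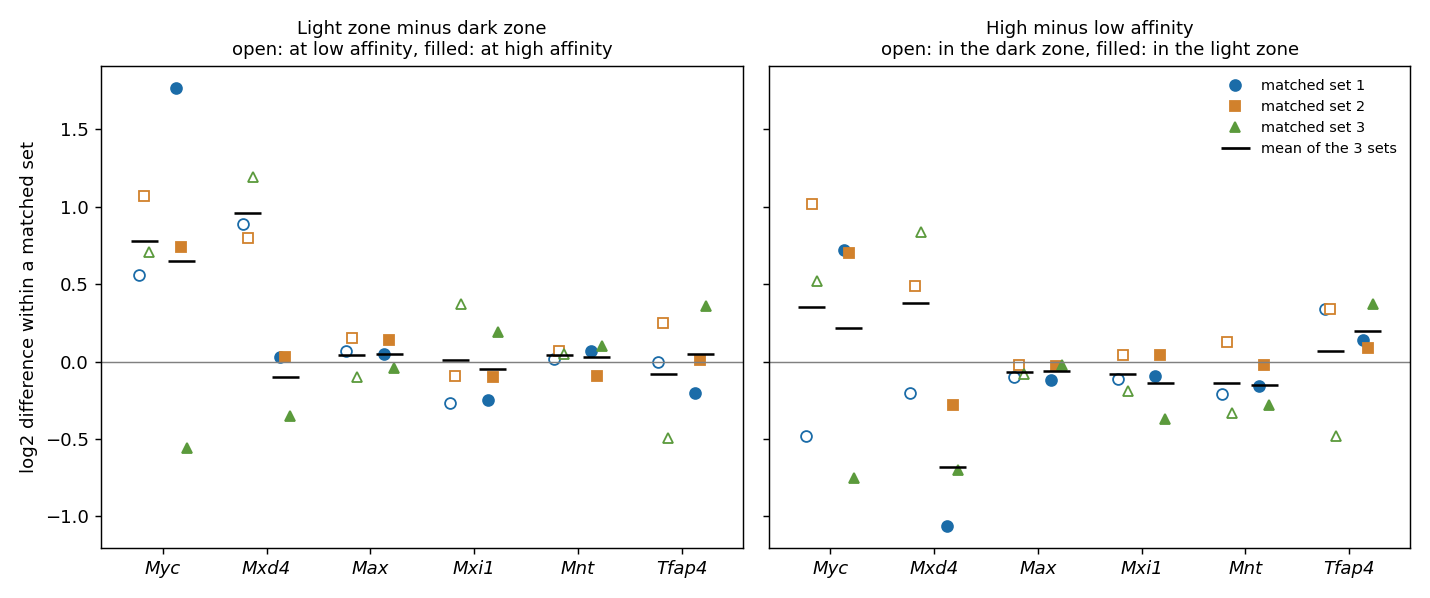
Log2 differences within each matched set (vertical axis) for the 6 tested genes, light minus dark zone on the left and high minus low affinity on the right; open and filled symbols separate affinities or zones as each panel states, and bars are the means of 3 sets. Mxd4 was 0.80 to 1.19 higher in the light zone in every set at low affinity, and Myc ranged from -0.56 to 1.77 at high affinity.

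The means of T cell and macrophage markers were highest in the LZ_low array of set 3, where Mxd4 was also highest (9.15). The mean of 8 T cell markers, relative to the array median, was 0.98 in the LZ_low array of set 3 and -0.37 to 0.29 in the other arrays. That of 8 macrophage markers was 0.20 in the same array and -0.63 to -0.21 elsewhere. In the arrays next highest in Mxd4, DZ_high of set 3 (8.80) and LZ_low of set 1 (8.56), the T cell means were -0.16 and -0.28. Their macrophage means were -0.21 and -0.59. The defining macrophage genes Csf1r and Adgre1 and the T cell genes Cd3d, Cd3g, Cd4 and Cd247 were too dim to be tested. Of these T cell genes, Cd3d and Cd3g had their highest group means in LZ_low. Cd3d was 5.26 there against 4.32 to 4.47 in the other groups, and Cd3g 5.44 against 4.21 to 4.99. Cd4 was lowest in LZ_low, 5.16 against 5.18 to 5.26, and Cd247 was 5.36 there against 5.33 to 5.55. Tested macrophage genes differed in direction. Cd68 had a mean of 8.08 in LZ_low against 7.02 to 7.46 in the other groups, and Lyz2 and C1qa were also highest there (6.27 and 5.76). C1qb was lowest in LZ_low, 5.36 against 5.40 to 5.61. Among tested T cell genes Cd8a, Lat and Thy1 were highest in LZ_low, whereas Cd3e was 5.71 there and 5.82 in DZ_low. Granulocyte markers ranged from -0.29 to 1.54 over the arrays, with an interaction median of -1.10 over 7 tested genes, none called. The part of these cells in the values of Mxd4 was not tested. Without the LZ_low array of set 3, Mxd4 was 0.69 higher in light than in dark zone cells at low affinity. In bulk samples, fewer cells of a type and less RNA per cell cannot be told apart.

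Mxi1 and Mnt, the other antagonists, differed little between groups. Mxi1 was dim, from 5.54 in the LZ_high array of set 1 to 6.30 in the LZ_low array of set 3, and its groups overlapped in every comparison. Its light minus dark zone difference was -0.02 ± 0.13 (interval -0.31 to 0.26), and high minus low affinity was -0.11 ± 0.13 (interval -0.40 to 0.17). Within the sets the zone difference ran from -0.26 in set 1 to 0.28 in set 3.

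Mnt, the most widely expressed of the MAX-binding repressors, read 7.80, 7.91 and 7.82 in LZ_high and 7.97, 7.94 and 8.09 in LZ_low. These 2 groups did not overlap, with LZ_high the lower, as for 4.49% of tested genes. In the dark zone it read 7.74, 8.0 and 7.71 at high and 7.95, 7.87 and 8.05 at low affinity, which overlapped. Over both zones high minus low affinity was -0.15 ± 0.10 (interval -0.35 to 0.06, limma adjusted p = 0.964), and light minus dark zone was 0.03 ± 0.10 (interval -0.17 to 0.24). Its SD over the arrays was above that of only 3.4% of tested genes.

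Tfap4 had a broader spread, set by matched set 3. It read 6.74, 6.56 and 6.75 in DZ_high, 6.40, 6.23 and 7.23 in DZ_low, 6.54, 6.57 and 7.11 in LZ_high, and 6.40, 6.48 and 6.74 in LZ_low. Set 3 was the highest set in every group, and all groups overlapped. Light minus dark zone was -0.01 ± 0.18 (interval -0.41 to 0.38) and high minus low affinity 0.13 ± 0.18 (interval -0.26 to 0.53). The high-affinity array was the higher in 5 of 6 pairs, the exception being the dark zone pair of set 3. The share of all genes with such a count was not computed.

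**Figure D3:**
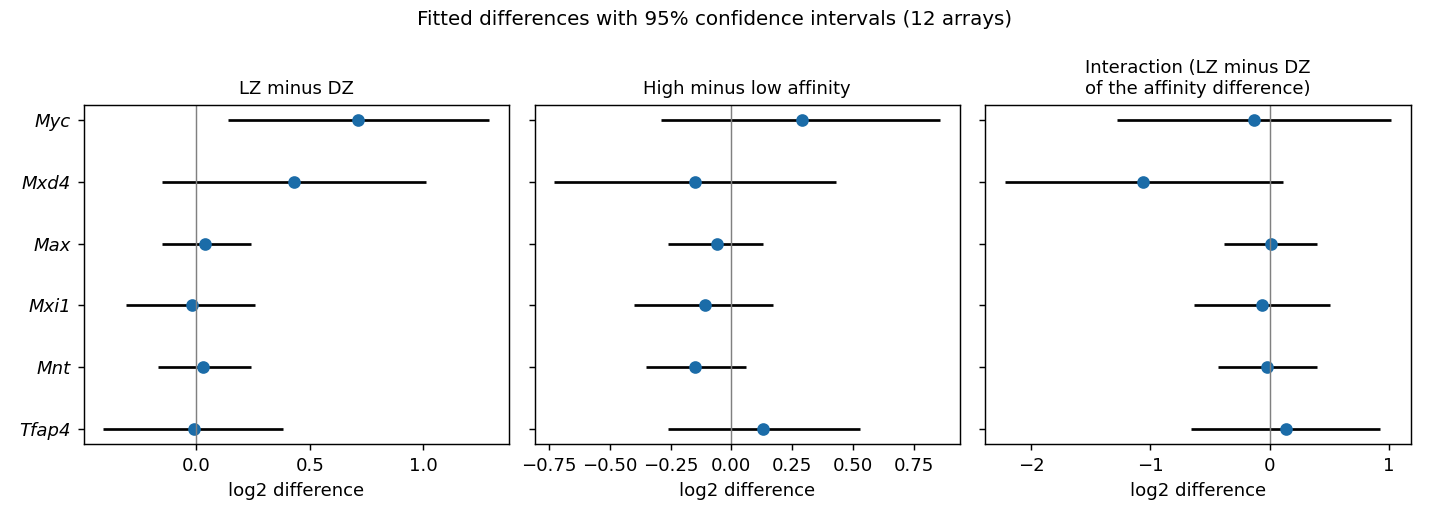
Fitted log2 differences (horizontal axes, which differ in scale between panels) of the 6 tested genes with 95% confidence intervals from limma over 12 arrays. Among the 3 comparisons drawn, only the interval of Myc for light minus dark zone over both affinities, 0.14 to 1.29, leaves out 0.

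None of the 6 tested genes was called in any of the 7 comparisons by limma (adjusted p below 0.05), with or without the block. At an unadjusted p below 0.05 there were 2 without the block, Myc between the zones over both affinities and Mxd4 between the zones at low affinity. With the block there were 5, Myc between the zones over both affinities, where the unadjusted limma p was 0.0239, and Mxd4 in 4 comparisons. For Mxd4 the unadjusted p with the block was 0.0146 between the zones over both affinities, where the difference was 0.43 and the sets gave 0.46, 0.42 and 0.42. It was 0.000937 between the zones at low affinity, 0.0083 between affinities in light zone cells and 0.00481 for the interaction. Of all 11206 genes, 0.419% were called between the zones over both affinities (1.2% with the block), 0.0357% at high affinity (0.0803%) and 0.0357% at low affinity (0.223%). Without the block, an unadjusted limma p below 0.05 was reached by 7.06%, 4.53% and 4.69% of genes in these 3 comparisons. In the other 4 comparisons 0% were called in either fit. There, unadjusted p without the block was below 0.05 for 5.25% of genes between affinities over both zones and 4.16% in light zone cells. The shares were 2.2% in dark zone cells and 1.58% for the interaction. Shares of all genes at this level with the block were not computed, so the 5 found with it have none beside them. Over both affinities the intervals of the zone difference of Max and Mnt lay within 0.24 of 0, whereas those of Myc and Mxd4 spanned more than 1 log2 unit.

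The remaining network genes and related genes were given by list. A list of 12 other genes held genes of the MAX and MLX network and, beside them, Usf1, Usf2, Tfe3, Tfeb and Mitf. The latter encode related helix-loop-helix factors that are not partners of MAX or MLX. Of the 12, 9 were tested and 0 were called. Their median light minus dark zone difference was 0.04, against -0.004 over all genes. Mycl, the third MYC gene, Mitf and Mlxipl were too dim. Mxd1 and Mxd3, the remaining MXD genes on the list, differed between the zones by -0.02 and 0.04. The smallest p values were those of Mlx, the partner of the MLXIP glucose sensors, at -0.27 ± 0.23 between the zones, and of Mlxip, at -0.32 ± 0.24 between affinities. Without set 3 the zone difference of Mlx was 0.09, opposite in sign, and without the LZ_high array of that set the affinity difference of Mlxip was -0.11.

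Regulators of MYC protein and its cofactors formed a list of 25. Of these, 23 were tested, 10 were higher and 13 lower in the light zone (median -0.09), and none was called by limma. At an unadjusted p below 0.05 there were 1 higher and 3 lower, beside 4.1% higher and 2.95% lower over all genes. Aurka, the mitotic kinase that shields MYCN from degradation, was -0.65 ± 0.12 in light minus dark zone (limma adjusted p = 0.0561). It was called as lower when matched set was a block (adjusted p = 0.0472), and it is also on the dark zone list. Ppp2r5a, a phosphatase subunit, was -0.47 ± 0.15 and Usp28, which removes ubiquitin from MYC, -0.51 ± 0.21, or -0.31 without the LZ_high array of set 3. Fbxw7, the ubiquitin ligase subunit that marks MYC for degradation, was 0.60 ± 0.25 (adjusted p = 0.613), or 0.35 without the DZ_high array of set 3. Between affinities Aurka was 0.49 ± 0.12 and Ruvbl1, a chromatin remodelling ATPase bound by MYC, 0.40 ± 0.12, neither called.

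Genes that MYC is known to activate, in ribosome assembly, nucleotide supply and growth, were given by a list of 40, of which 38 were tested. Between the zones 26 were higher in the light zone and 12 lower, with a median of 0.09, beside a median of -0.004 and 49% of genes higher over all genes tested. Leaving out single arrays moved the list's median from 0.05, without the DZ_low array of set 2, to 0.15, without the DZ_high array of set 3. None was called without the block. Tfrc, the transferrin receptor, was 0.82 ± 0.16 (limma adjusted p = 0.0662), and it was called as higher when matched set was a block (adjusted p = 0.0295). Ccnd2, a D cyclin, was 0.67 ± 0.24 (adjusted p = 0.494).

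Between affinities, 33 of the 38 were higher at high affinity and 5 lower, with a median of 0.27, beside a median of -0.002 and 49.6% of genes higher over all genes tested. None was called, and 10 had an unadjusted limma p below 0.05, all higher, beside 2.21% higher and 3.03% lower over all genes. Mrto4, a ribosome assembly factor, was 0.45 ± 0.13, the amino acid transporter gene Slc7a5 was 0.53 ± 0.18 and Rcc1, a nuclear exchange factor, was 0.36 ± 0.13; adjusted p for these 3 lay between 0.849 and 0.92. In light zone cells the median was 0.32, with 35 higher, and it was 0.32, 0.40 and 0.19 within the sets. In dark zone cells it was 0.22, with 31 higher, and -0.03, 0.41 and 0.14 within the sets. Without the DZ_low array of set 2 the dark zone median was 0.04. The genes of this list share arrays and are not independent replicates, and the list was chosen with earlier results of these data known. Of 11 dark zone genes on the list used to check the labels, many of them mitotic, 9 were also higher at high affinity (median 0.35). So were 4 of 4 tested plasma cell markers (median 0.34). Of these, 2 had an unadjusted limma p below 0.05, beside the same 2.21% of all genes. The plasma cell genes Prdm1 and Tnfrsf17 were too dim to be tested. Between the zones Irf4 was higher in light zone cells (0.74) and the other 3 tested markers were lower. Only 0 of 5 B cell markers (median -0.22) and 1 of 12 light zone genes (median -0.17) were higher at high affinity. The part of these groups in the values of the target list was not tested.

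**Figure D4:**
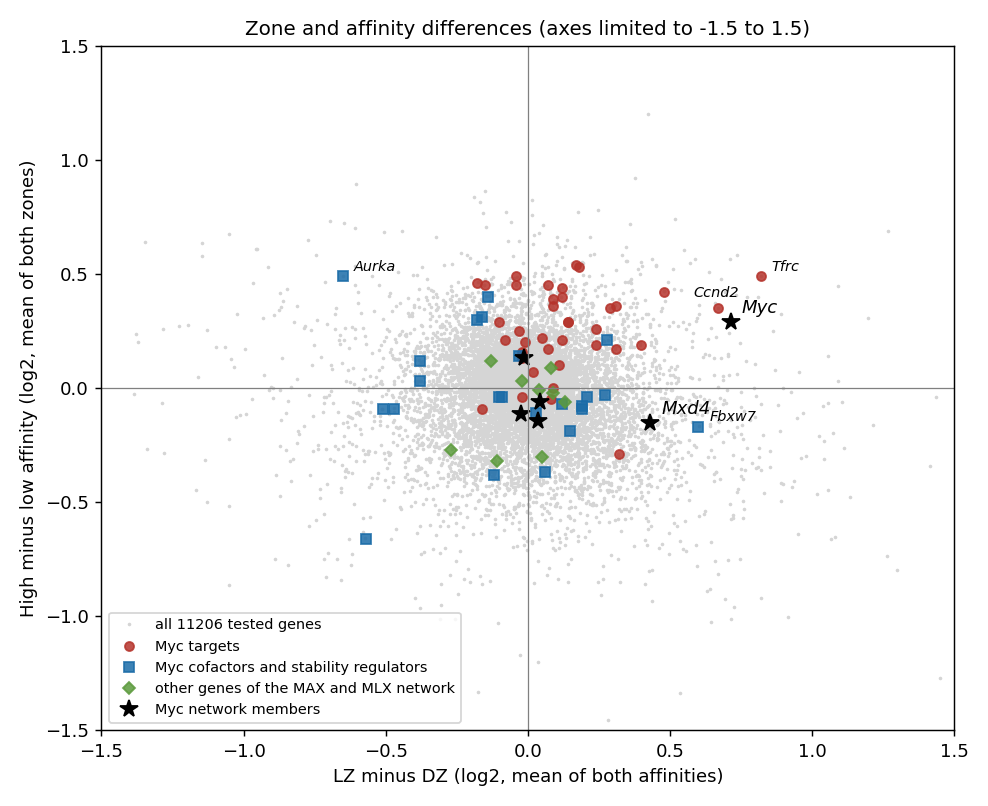
Each tested gene's log2 difference between the zones (horizontal axis, light minus dark) and between affinities (vertical axis, high minus low), with 3 gene lists and the tested Myc network genes marked; 11 genes lie beyond the axes. Most Myc targets (33 of 38) lie above 0 on the vertical axis, and Myc (0.71) and Mxd4 (0.43) lie to the right of the other network genes.

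A list of 8 genes was drawn up as candidates for repression by MYC, with or without ZBTB17. Whether MYC represses them in these cells was not measured. Of the 8 genes, 6 were tested, none was called, and the medians were -0.10 between the zones and -0.11 between affinities. Klf6, a zinc finger factor gene, was -0.67 ± 0.22 at high minus low affinity (limma adjusted p = 0.852). The cell cycle inhibitor gene Cdkn1b was -0.73 ± 0.49 in the same comparison and -0.62 ± 0.49 between the zones, but -0.18 and -0.07 without the LZ_high array of set 3.

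How the members varied with each other and with their targets is a description over 12 arrays that share matched sets and groups. Myc correlated with the mean of the 38 target genes at r = 0.67 (Spearman 0.59), and at 0.68 after the means of the matched sets were removed. The relation rested in part on the extreme arrays: without the 2 arrays farthest from the median of Myc, r was 0.32. Tfap4 had r = 0.53 with the same mean (0.34 with set means removed, 0.65 without its 2 farthest arrays). Mycn had 0.49 (0.26 without its 2 farthest arrays), Mxd4 0.29 (0.01 with set means removed, 0.18 without its 2 farthest arrays), and Max, Mxi1 and Mnt lay between -0.17 and 0.02. Among 21 pairs of members the highest was Mxi1 with Mnt, r = 0.61, and Myc with Mxd4 had 0.46.

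The genes whose values followed a member most closely over the 12 arrays were also listed, by Pearson's r. For Myc they were Sqle, a sterol synthesis enzyme (0.91), Prmt3, a methyltransferase acting on a ribosomal protein (0.896), and Mthfd1l, a mitochondrial folate enzyme (0.889). With set means removed these were 0.948, 0.93 and 0.897. For Mxd4 they were Glmp (0.947), Stk11ip (0.924) and Fermt3 (0.921), for Tfap4 the RNA helicase gene Ddx27 (0.936), Psmd7 (0.914) and Snord52 (0.908). The closest to Max was Phf11a (0.868), to Mxi1 Xpa (0.88) and to Mnt Cytip (0.873). Each is the top of a search over all tested genes, which favours high values.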

How the data were processed

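The members and gene lists were chosen with earlier results of these data known. The deposited values are log2 expression values per probe set. The submitters' processing notes name RMA and the genome build mm8 and no further step; that the scale is log2 was judged from how far the values range. Of 28853 probe sets, 21789 had 1 gene symbol in the platform annotation, 1621 several and 5443 none. Where a gene had more than 1 probe set (999 of 19938), the one with the highest mean was used. Testing required a value at or above the array's own median over all probe sets in at least 3 of 12 arrays, which left 11206 genes and 8732 too dim.

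Means of the 4 groups were fitted over 12 arrays by lmFit and eBayes (limma 3.58.1, R 4.3.3; two-sided tests), without a block, for 7 contrasts, and Benjamini-Hochberg adjusted p below 0.05 over all tested genes was called. The interaction is the affinity difference in the light zone minus that in the dark zone. The code was tested on simulated data.

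The matched sets come from the suffix in the sample descriptions, which the labels do not explain. With group means removed, 17 of 18 same-set pairs of arrays correlated above 0.1 (the median was 0.41 and the lowest -0.071), and for 11 of 12 arrays the best partner was in the same set. Counts from both fits were known before this check, so the fit without the block is given first and the replicate block beside it.

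The named genes were the 7 members, Cd86 and Cxcr4 as sort genes, markers of B cells and other cell types from the marker lists, up to 4 members of each pathway list with the smallest p between the zones and between affinities, and the 3 genes most correlated with each tested member. Of the last, all are printed for Myc, Mxd4 and Tfap4 and the first for the others. Mxd1, Mxd3, Mycl, Mitf and Mlxipl, and the markers picked from their lists, were named after their values were seen. Alternatives were a fixed or random block, no filter or one at percentile 75, quantile normalization, median centring, eBayes with trend and robust, array weights, probe sets of a gene averaged, only the groups compared (no value for comparisons over all 4 groups), each array left out, and 3 fits added after seeing the data. The number of arrays limits the precision.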

Additional observations from a re-analysis of the deposited data

How the results depend on the processing

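No member changed its call except Myc between the zones over both affinities, where 1 member was called with array weights and 1 with the replicate block when the LZ_high array of set 3 was dropped. The weights were estimated with limma, which stopped short of its convergence tolerance. The 3 fits without set 3 or without that array were chosen after seeing the data. The replicate block changed the call of no member; Aurka and Tfrc passed with it. The causes of the changes below were not tested. The spread between 3 arrays limits every comparison.

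Genes called between the zones over both affinities numbered 47, and 135 with a fixed and 110 with a random replicate block, 80 after quantile normalization, 28 after median centring, 327 with array weights, 85 without set 3, 86 with the block without set 3, 167 with the block when the LZ_high array of set 3 was dropped, and 12 to 67 with each array left out (67 without that LZ_high array, 12 without the DZ_low array of set 1). At high affinity they numbered 4, and 9 with the fixed and 12 with the random block, 146 with array weights, 0 with only the groups compared and 2 to 5 with an array left out. At low affinity they numbered 4, and 25 and 18 with the blocks, 7 after quantile normalization, 40 with array weights, 0 with only the groups compared, 40 with the block when the LZ_high array of set 3 was dropped and 0 to 5 with an array left out. Between affinities 0 were called over both zones, and 1 with the random block, 1 after quantile normalization and 52 with array weights; in the light zone 103 with array weights; in the dark zone 0 to 1 with an array left out.

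Some differences reversed. With array weights, the interaction was 0.27 for Myc and 0.06 for Mxi1; Mxi1 was 0.03 between affinities, 0.05 in the light zone and -0.11 between the zones at low affinity; at high affinity the zone difference was -0.01 for Mnt and -0.04 for Tfap4. Quantile normalization gave Max an interaction of -0.01. Without set 3, with or without the block, the interaction was 0.44 for Myc, -0.01 for Max and -0.22 for Tfap4. The zone difference was then -0.18 for Mxi1 and 0.12 for Tfap4 at low affinity, 0.03 for Mxd4, -0.01 for Mnt and -0.10 for Tfap4 at high affinity, and over both affinities 0.01 for Tfap4, 0.09 for Mlx, 0.04 for Usf1, 0.05 for Mlxip and 0.11 for Gadd45a. Affinity differences became -0.06 for Usf1 and 0.07 for Gadd45a. With the block and without LZ_high of set 3, the interaction was 0.41 for Myc and 0.01 for Mnt, Mlxip was 0.09 between the zones and Gadd45a 0.10 between affinities.

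With each array left out, ranges crossing 0 were as follows. Among list medians, those of the list of MAX and MLX network and related genes were -0.05 to 0.08 between the zones and -0.12 to 0.06 between affinities. That of the cofactors between the zones was -0.12 to 0.01. For the interaction the ranges were -0.47 to 0.20 for Myc, -0.03 to 0.07 for Max, -0.20 to 0.13 for Mxi1, -0.07 to 0.08 for Mnt and -0.17 to 0.33 for Tfap4. Between the zones over both affinities they were -0.12 to 0.05 for Mxi1, -0.11 to 0.14 for Tfap4, -0.30 to 0.08 for Usf1 and -0.31 to 0.10 for Mlxip. At high affinity they were -0.12 to 0.07 for Mxi1, -0.38 to 0.29 for Mxd4, -0.03 to 0.12 for Mnt and -0.13 to 0.16 for Tfap4, and at low affinity -0.03 to 0.07 for Max, -0.18 to 0.15 for Mxi1 and -0.28 to 0.23 for Tfap4. Between affinities they were -0.51 to 0.01 for Mga, -0.10 to 0.29 for Usf1 and -0.33 to 0.03 for Gadd45a, in the light zone -0.29 to 0.04 for Mxi1, and in the dark zone -0.01 to 0.66 for Mxd4 and -0.13 to 0.37 for Tfap4.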
